A study of Mus musculus with 2 samples.

Results

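Esrp1 and Esrp2, the epithelial splicing regulatory proteins, and 8 genes whose exons are spliced differently in epithelial and mesenchymal cells were followed in mouse stomach. The members were chosen by name, and all 10 were found among 43346 mouse genes, of which 21474 were protein-coding. Their 120 transcripts were all present in the transcript tables, and 49 of these were listed at 0 in both libraries. The tissue was stomach of adult C57BL/6J mice aged 8 weeks, an inbred wild-type laboratory strain with no treatment named. RNA longer than 200 nucleotides, polyadenylated and depleted of ribosomal RNA, was read from both ends with reads of 76 bases, and the libraries keep strand and carry spike-ins. Both libraries belong to 1 group, stomach, as replicates 1 and 2. Each came from pooled male and female littermates, and both carry the same donor record, so whether they come from separate animals is not known and the spread is that between these libraries. Replicate 1 held 51633637 expected read pairs at mouse genes and replicate 2 held 61635982. With 1 group no contrast between conditions exists, so levels, form shares and the spread between replicates are described without a test.

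The ESRP proteins bind RNA and set the splicing of a network of exons in epithelial cells. During the epithelial to mesenchymal transition the transcription factors ZEB1, ZEB2 and SNAI1 lower their expression, and the same pre-mRNAs are then spliced to mesenchymal forms by other regulators, among them the RBFOX, MBNL and QKI proteins. Several of the targets encode receptors or regulators of cell contacts and actin, such as the growth factor receptor FGFR2, the hyaluronan receptor CD44 and the cadherin partner p120-catenin. The stomach wall joins an epithelium to smooth muscle and connective tissue, so a bulk sample holds RNA of both kinds of cell. In bulk samples fewer cells of a type and less RNA per cell cannot be told apart.

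The exons on which the results turn are printed from GENCODE M21 transcripts with mm10 positions. Capitals mark the alternative exon, or the part that an alternative splice site adds, and the 12 bases on each side in lower case are those of the transcript that holds it. The Fgfr2 IIIb exon is shown because it is mutually exclusive with the IIIc exon and encodes a part of the ligand-binding domain.
Fgfr2 IIIb exon (epithelial), chr7:130199758-130199905, minus strand: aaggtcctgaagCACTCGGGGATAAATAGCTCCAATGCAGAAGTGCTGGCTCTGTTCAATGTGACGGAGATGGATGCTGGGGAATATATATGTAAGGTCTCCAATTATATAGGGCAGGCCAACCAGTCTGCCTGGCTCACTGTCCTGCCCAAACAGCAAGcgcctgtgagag
The Actn1 pair, also mutually exclusive, lies in the region of the calcium-binding EF hands.
Actn1 exon of 81 bases (non-muscle), chr12:80170686-80170766, minus strand: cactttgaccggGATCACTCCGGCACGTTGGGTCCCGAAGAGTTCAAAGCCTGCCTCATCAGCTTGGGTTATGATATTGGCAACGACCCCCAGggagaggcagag
Actn1 exon of 66 bases (smooth muscle), chr12:80170183-80170248, minus strand: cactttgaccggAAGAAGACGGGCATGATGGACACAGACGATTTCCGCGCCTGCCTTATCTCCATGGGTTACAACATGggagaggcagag
The cassette exons below are those whose inclusion marks a form of Cd44, Ctnnd1, Enah, Slk, Numb or Arhgef11, and the first entry is the addition within Esrp1 itself.
Esrp1 exon 12 extension, chr4:11357460-11357471, minus strand: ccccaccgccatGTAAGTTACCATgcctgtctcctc
Cd44 v6 exon, chr2:102839358-102839477, minus strand: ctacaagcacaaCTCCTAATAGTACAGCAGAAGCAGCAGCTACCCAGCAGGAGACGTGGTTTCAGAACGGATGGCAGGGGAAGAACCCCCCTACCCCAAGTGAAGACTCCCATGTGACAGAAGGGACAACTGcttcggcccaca
Ctnnd1 exon B, chr2:84603188-84603274, minus strand: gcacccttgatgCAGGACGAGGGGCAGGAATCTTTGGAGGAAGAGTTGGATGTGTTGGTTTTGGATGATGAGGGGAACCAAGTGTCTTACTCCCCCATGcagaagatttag
Enah exon 11a, chr1:181911597-181911659, minus strand: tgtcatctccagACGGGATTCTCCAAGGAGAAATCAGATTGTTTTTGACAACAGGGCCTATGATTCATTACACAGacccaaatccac
Slk exon 13, chr19:47627648-47627740, plus strand: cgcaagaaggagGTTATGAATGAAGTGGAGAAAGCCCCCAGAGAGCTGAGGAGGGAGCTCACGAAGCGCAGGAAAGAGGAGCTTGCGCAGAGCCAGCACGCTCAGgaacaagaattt
Numb PRR exon, chr12:83797197-83797343, minus strand: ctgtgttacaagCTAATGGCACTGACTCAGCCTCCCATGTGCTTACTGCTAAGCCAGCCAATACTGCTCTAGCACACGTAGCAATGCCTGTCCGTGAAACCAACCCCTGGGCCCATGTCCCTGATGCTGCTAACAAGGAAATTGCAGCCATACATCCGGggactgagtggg
Numb PTB exon, chr12:83825259-83825291, minus strand: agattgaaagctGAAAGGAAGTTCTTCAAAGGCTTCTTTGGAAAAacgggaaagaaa
Arhgef11 exon of 127 bases, chr3:87722357-87722483, plus strand: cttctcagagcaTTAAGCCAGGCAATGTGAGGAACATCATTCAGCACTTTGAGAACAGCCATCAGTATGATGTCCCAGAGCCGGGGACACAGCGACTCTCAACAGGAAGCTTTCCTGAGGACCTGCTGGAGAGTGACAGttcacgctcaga
Arhgef11 exon of 30 bases, chr3:87718229-87718258, plus strand: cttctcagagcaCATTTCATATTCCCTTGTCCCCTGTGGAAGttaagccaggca
Of 14 such alternative segments extracted, 12 had a length divisible by 3, and their GC content ran from 33.3% to 58.1%. The remaining 2, Fgfr2 IIIb with 148 bases and the Arhgef11 exon with 127, each left a remainder of 1, so that leaving out the Arhgef11 exon shifts the reading frame.

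All 10 genes were expressed, with Esrp2 the highest and Slk the lowest. Levels are given in TPM, a measure of transcript abundance per length, relative to all transcripts of a library. Esrp2 (chromosome 8, 106130319 to 106136974 on mm10) had 46.9 and 55.9 TPM in replicates 1 and 2, a mean of 51.4 ± 6.38 (SD, n = 2), and ranked 1429 among the protein-coding genes. Esrp1 (chromosome 4, 11331933 to 11386783) had 10.6 and 17.2 TPM, with a mean of 13.9 ± 4.63 and rank 4075. Esrp2 was 4.41 times as high as Esrp1 in replicate 1 and 3.26 times in replicate 2, so the paralogs kept their order in both libraries.

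Of the targets, the actin crosslinker gene Actn1 (chromosome 12, 80167547 to 80260371) had 33.4 and 29.1 TPM, and Numb (chromosome 12, 83794034 to 83921934), which encodes an endocytic adaptor that restrains Notch signalling, had 30.3 and 28.9 TPM. Ctnnd1 (chromosome 2, 84600071 to 84650765), the p120-catenin gene, followed at 13.4 and 21.6 TPM. Arhgef11 (chromosome 3, 87617559 to 87738034), which encodes an activator of the GTPase RhoA, had 9.67 and 12.5 TPM. Enah (chromosome 1, 181896384 to 182019990), whose protein Mena promotes actin filament growth, had 11.2 and 10.7 TPM. These values placed Actn1 and Numb together above the other targets, with Ctnnd1 next. Fgfr2 (chromosome 7) had 8.70 and 10.9 TPM and Cd44 (chromosome 2, 102811141 to 102901665) had 6.24 and 10.4 TPM. Slk (chromosome 19, 47579678 to 47645246), a kinase gene of the Ste20 family, had 2.63 and 4.19 TPM. In the order of means only 3 steps between neighbours exceeded the spread of the replicates: Esrp2 lay above Actn1, Numb above Ctnnd1 and Cd44 above Slk, without overlap. Each of the other neighbouring pairs overlapped.

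**Figure D1:**
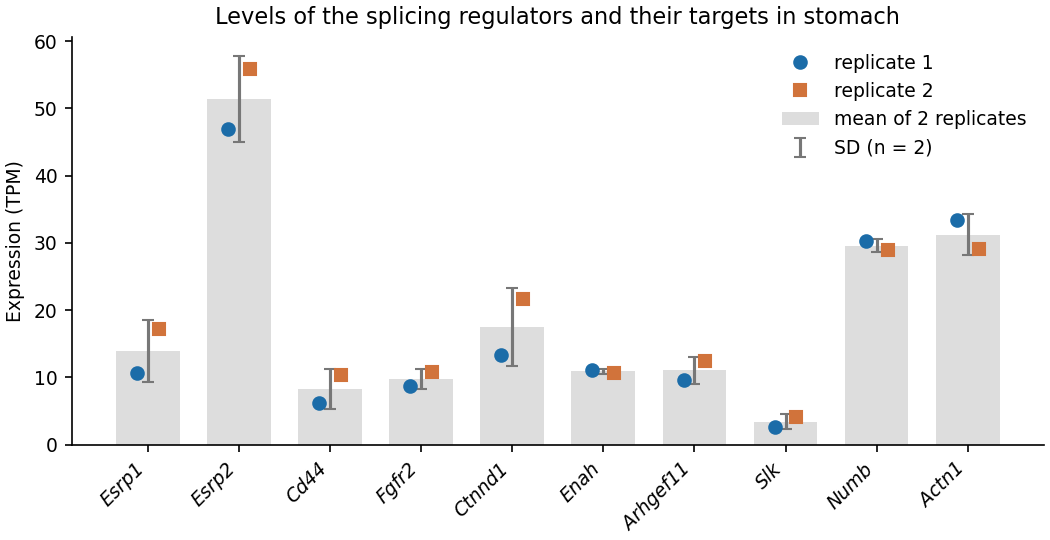
Expression of the 10 genes in TPM, with the values of replicates 1 and 2 as points, their mean as a bar and the SD (n = 2) as an error bar. Esrp2 stands highest at 51.4 TPM and Slk lowest at 3.41 TPM.

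Between the libraries 7 of the 10 genes were lower in replicate 1 and 3 were higher, none of them past 2-fold. Ratios are log2 values of replicate 1 over replicate 2 from scaled counts, with a 95% interval that covers counting error only. Cd44 had the lowest ratio at -0.76 (interval -0.86 to -0.65, from 1088 and 2245 read pairs), followed by Ctnnd1 at -0.69 (-0.75 to -0.64). The ratio of Esrp1 was -0.56 (-0.65 to -0.48) and that of Esrp2 was -0.08 (-0.12 to -0.03). At the other end Actn1 had a ratio of 0.28 (0.23 to 0.33), Enah 0.15 and Numb 0.07. The median over the 10 was -0.28, against 0.15 over genes with a mean of at least 5 TPM. Of the 7047 genes at that level 533 (7.56%) were past 2-fold in either direction, 462 (6.56%) higher in replicate 1 and 71 (1.01%) lower, against 0 of the 9 members at that level. Marker levels of other cell kinds also differed between the libraries. The 7 smooth muscle markers summed to 6245 TPM in replicate 1 and 3820 in replicate 2; 5 of them were higher in replicate 1, while Myh11 (21.1 and 38.8 TPM) and Smtn (75.4 and 78.2 TPM) were lower. The 15 epithelial markers summed to 2998 and 2742 TPM, with 10 higher and 5 lower in replicate 1, Cdh1 and Krt5 among the lower. The 6 gastric gland markers summed to 136802 and 178665 TPM, most of it from Pgc (101314 and 148481 TPM). Of these 6, 3 were higher and 3 lower in replicate 1. The 5 endothelial markers summed to 58.2 and 65.5 TPM, with 1 higher and 4 lower in replicate 1. The 13 mesenchymal markers summed to 726 and 644 TPM, with 6 higher and 7 lower in replicate 1. The 6 leukocyte markers summed to 32.17 and 23.45 TPM, with 4 higher and 2 lower. The part of all these markers in the members' ratios was not tested.

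Other regulators of the same switch were present beside the ESRP genes. Of 21 listed, 18 reached 1 TPM in both libraries, and their median was 6.39 TPM. Ptbp1, a polypyrimidine tract binding protein, had 87.3 and 104 TPM and was the only listed regulator with a mean above that of Esrp2. Srsf1 (59.2 and 38.8 TPM) had a mean close to Esrp2, and Rbm47 (38.3 and 32.9 TPM), Hnrnpf (26.4 and 29.3 TPM), Hnrnpm (27.7 and 20.7 TPM) and Khdrbs1 (30.2 and 14.8 TPM) had means above that of Esrp1. Rbfox2, Mbnl1 and Qk, which favour mesenchymal or muscle forms of several targets, had means of 12.3, 13.5 and 2.19 TPM. Rbfox1, Rbfox3 and Ptbp2, best known from neurons and muscle, stayed below 1 TPM in both libraries.

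**Figure D2:**
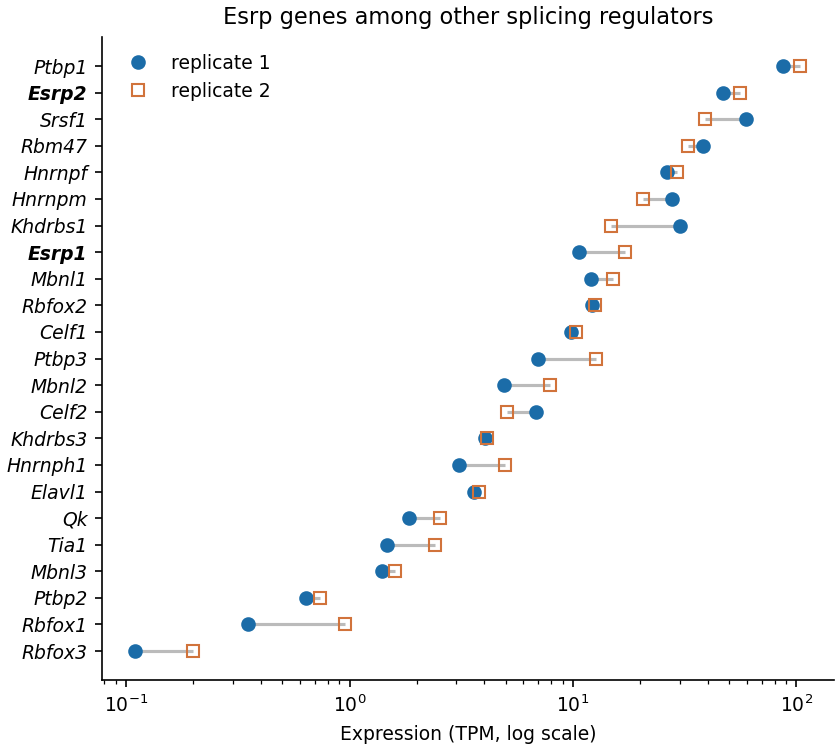
TPM on a log scale of Esrp1 and Esrp2 (bold) and 21 other splicing regulators, with replicates 1 and 2 as points joined by a line. Ptbp1 alone has a mean above the 51.4 TPM of Esrp2, and Esrp1 lies next to Mbnl1 and Rbfox2.

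Both kinds of tissue were represented among the markers. All 15 epithelial markers reached 1 TPM in both libraries, with a median of 96.6 TPM, and so did all 7 smooth muscle markers, with a median of 599 TPM. Of 13 mesenchymal markers 10 did, with a median of 5.21 TPM. Vim, the intermediate filament gene vimentin, had 482 and 333 TPM. The ESRP repressor genes were lower, with Zeb1 at 0.76 and 1.82 TPM and Zeb2 at 0.91 and 2.92 TPM, while Snai1 had 18.02 and 13.15 TPM. Of the endothelial list 5 of 5 genes reached that level (median 10.2 TPM), of the leukocyte list 3 of 6 (median 1.67 TPM) and of the gastric gland list 6 of 6 (median 1370 TPM).

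Splice forms were read from transcript TPM in each library and from reads across splice junctions in a deposited table that does not say which library a read came from. A share from transcripts is the TPM of the named form over the TPM of the forms compared. For a cassette exon or block, a share from junctions sets the mean of the reads into and out of it against the reads that skip it. For mutually exclusive exons the means of both exons are compared, and for alternative donors or acceptors the reads at each site. Each share has a 95% Clopper-Pearson interval for counting error, taken on the averaged counts where reads were averaged. Each of the 10 genes was found in the junction table, with 57 reads for Slk and from 822 to 8353 for the others.

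Esrp1 itself was spliced in several ways. An alternative donor adds 12 bases to its exon of 187 bases, a change known to alter where the ESRP1 protein resides in the cell. Transcripts with the addition held 36.5% and 27.8% in replicates 1 and 2 (mean 32.1% ± 6.16), and junctions gave 43.3% (38.5 to 48.2), from 181 reads at the longer form and 237 at the shorter. Of the transcripts, Esrp1-203 has the addition and had 3.88 and 4.75 TPM, while Esrp1-202 (2.84 and 4.16 TPM) and Esrp1-206 (1.28 and 3.98 TPM) lack it. Another 91 reads left this exon out, against 225 reads into it and 420 out of it, a share of 22.0% (18.1 to 26.3). The upstream junction alone gave 28.8% and the downstream one 17.8%, both outside that interval. Of the 91, 89 joined the neighbouring exons directly. None of the M21 transcripts counted here skips this exon. Near the 3′ end, the donor of the exon of 169 bases had 562 reads at M21 introns. Of these, 287 (51.1%) led to an exon of 151 bases, 154 (27.4%) to one of 110 bases and 121 (21.5%) directly to a last exon.

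Esrp2 was dominated by 1 coding transcript. Esrp2-201 had 38.4 and 41.3 TPM, 82.0% and 73.8% of the gene. Retained intron transcripts held 16.9% and 15.2%, of which Esrp2-208, 631 bases long, had a mean of 4.22 TPM. As a share of expected counts, which are not divided by length, Esrp2-201 held 97.2% and Esrp2-208 held 1.34%. Junctions of Esrp2 carried 8353 reads, 99.0% of them at M21 introns.

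Fgfr2 was spliced to both receptor forms. FGFR2 with the IIIb exon binds FGF7 and FGF10 from mesenchyme, whereas the IIIc form is the usual one of mesenchymal cells. IIIb transcripts summed to 2.93 and 2.87 TPM in replicates 1 and 2, and IIIc transcripts to 1.10 and 1.96 TPM. IIIb thus held 72.7% and 59.4%, a mean of 66.1% ± 9.39. The junctions gave 51.0% (30.6 to 71.1), from 4 reads into and 22 out of IIIb against 3 into and 22 out of IIIc. The interval holds the transcript share and spans equal use of the 2 exons. On the IIIb side Fgfr2-211 had 2.57 and 2.64 TPM. On the IIIc side Fgfr2-207 had 1.10 and 1.16 TPM, and Fgfr2-215 had 0.80 TPM in replicate 2 and was listed at 0 in replicate 1.

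A further 2 Fgfr2 choices were covered better. A donor that adds 6 bases for a valine and a threonine below the transmembrane segment, needed for binding of the adaptor FRS2, held 75.4% and 73.4% by transcripts and 78.5% (71.4 to 84.6) by junctions. All 128 junction reads of this donor lay 1 base aside from its M21 intron, at equal length, and were counted through the shift allowed. The exon of the first immunoglobulin-like domain was included in 11.2% and 22.8% by transcripts and 17.4% (9.74 to 27.7) by junctions. Among the transcripts compared, those without the exon summed to 4.03 TPM in each library, out of 8.70 and 10.9 TPM for the whole gene. The share was 8.28% within coding transcripts alone and 7.25% with the upstream junction alone. Transcripts annotated as retained introns held 29.6% and 30.9% of Fgfr2, among them Fgfr2-221 with 1.88 and 2.41 TPM. As a share of expected counts Fgfr2-221 held 5.78% of the gene, against 21.9% of its TPM. The coding transcript Fgfr2-217, which was not assigned to IIIb or IIIc, had 1.63 and 2.28 TPM.

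Cd44 showed the standard and the variable form at similar shares. The variable exons lengthen the extracellular stem and are included in many epithelia, while the standard form is common in mesenchymal and blood cells. Transcripts with variable exons summed to 2.92 and 4.61 TPM, and the standard transcript Cd44-203 had 1.53 and 3.78 TPM. The variable forms held 65.6% and 54.9% (mean 60.3% ± 7.55), and junctions gave 50.0% (40.03 to 59.97), with 60 reads into and 44 out of the variable block against 52 reads that join the exons around it. With junctions that pass the table's reproducibility value of 0.1 or lower the share was 37.3%. Cd44-207 was the main variable transcript, at 2.02 and 2.25 TPM, and Cd44-201, which holds all the variable exons, had 0.08 and 0.89 TPM. Cd44-209, a retained intron transcript, had 1.79 and 2.05 TPM, which is 24.2% of the gene by TPM and 13.5% by expected counts.

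The variable exons were not used evenly. The constant exon before the block had 100 reads at M21 introns. Of these, 52 led to the standard exon, 21 to v4, 14 to v6, 5 each to v1 and v8, and 3 to v5. Reads across introns absent from M21 led from the same exon to v2 (5 reads), v3 (2 reads) and v7 (5 reads). Exon v6 had the most junction reads, with 40 into it and 31 out of it, followed by v5 with 31 and 29 and v4 with 31 and 28. Exons v1, v2 and v3 had 16, 21 and 9 reads in all. At the other end v9 had 25 reads in and 2 out, and v10 had 2 reads in and 41 out, so reads across the intron between v9 and v10 were few. By transcripts the highest sums were at v8 to v10, with 2.92 TPM in replicate 1 and 4.54 to 4.61 TPM in replicate 2. Transcripts that hold v6 summed to 2.66 and 4.42 TPM, those with v7 to 0.64 and 2.17 TPM and those with v1 to 0.08 and 0.89 TPM.

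**Figure D3:**
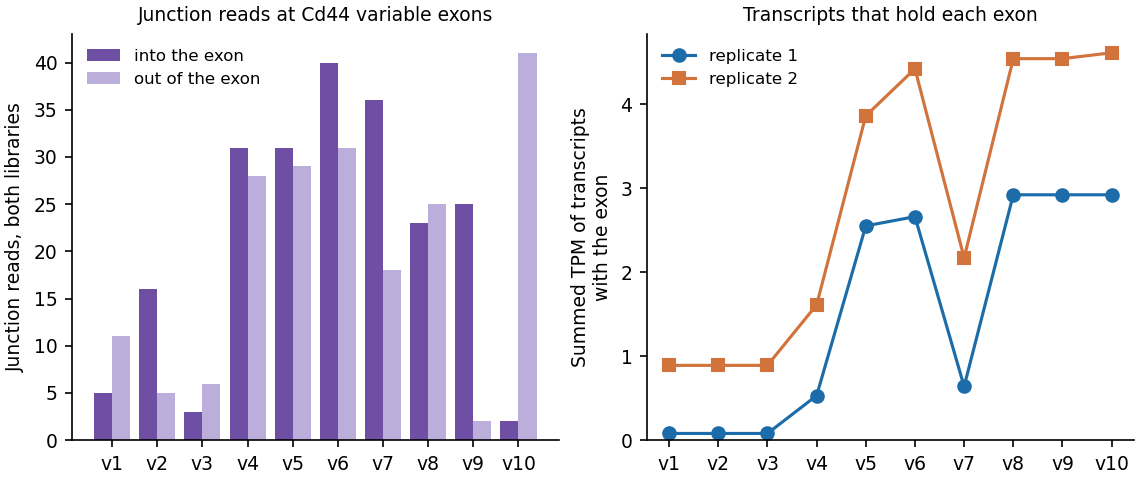
Left, reads of both libraries that join into and out of each Cd44 variable exon; right, the summed TPM of the transcripts that hold each exon in replicates 1 and 2. Junction reads are highest at v6, and both readouts are low at v1 to v3.

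Ctnnd1 mixed full-length and shorter amino termini. Skipping an early exon moves the start codon downstream, and the shorter p120-catenin is typical of epithelial cells while the full-length form is typical of mesenchymal ones. Transcripts with an early exon of 289 or 180 bases were counted as full-length, and those that skip it as the shorter form. So counted, the shorter form held 40.6% and 41.8% by transcripts in replicates 1 and 2, a mean of 41.2% ± 0.831. In replicate 2 the full-length side had 12.6 TPM, of which 2.68 TPM came from Ctnnd1-216, whose coding part is shorter. The closeness of the 2 shares depends on this count. By junctions the shorter form held 16.4% (10.3 to 24.2), from 20 reads that skip the exon against 42 into it and 162 out of it. The count into the exon alone gave 32.3%, and the R1 reads of the table alone gave 5.97%. The full-length transcript Ctnnd1-202 had 7.93 and 9.32 TPM in both libraries.

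The TPM assigned to other Ctnnd1 transcripts differed between the libraries. Ctnnd1-208, a shorter form with exon B, had 2.21 TPM in replicate 1 and 8.32 TPM in replicate 2. Ctnnd1-204, a shorter form with exon C, had 3.11 TPM in replicate 1 and was listed at 0 in replicate 2. Ctnnd1-216 was listed at 0 in replicate 1 and had 2.68 TPM in replicate 2. It holds an early exon and was counted as full-length, but its coding part has only 2634 bases. Ctnnd1-219, with the same forms of exons A, B and C, has a coding part of 2796 bases. Ctnnd1-216 is thus not of full length by its annotated coding part. The deposited posterior SD, which describes how uncertain an estimated count is, was large for these transcripts. As a percent of the count it was 27.7% and 7.21% for Ctnnd1-208 in replicates 1 and 2. For Ctnnd1-204 in replicate 1 it was 20.8%, and for Ctnnd1-216 in replicate 2 it was 25.6%. The share of Ctnnd1-204 differed by 23.3 percentage points, and Ctnnd1 was the only member with a transcript share 20 or more points apart. Among 5211 genes with several transcripts and at least 5 TPM, 868 (16.7%) had such a difference.

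The cassette exons of Ctnnd1 carried few junction reads. Exon B, of 87 bases, which holds a nuclear export signal, was included in 16.6% and 40.5% by transcripts and 41.5% (28.1 to 55.9) by junctions, from 9 reads into it, 35 out of it and 31 past it. R1 reads alone gave 25% and the upstream junction alone 22.5%. Exon C, of 18 bases, had 23.3% and 2.54% by transcripts and no junction read among 17, which allows a share of up to 19.5%. Exon A, of 63 bases, had 24.0% and 15.9% by transcripts and 36.8% (9.81 to 72.0) by junctions, from 2 reads into it, 5 out of it and 6 past it.

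**Figure D4:**
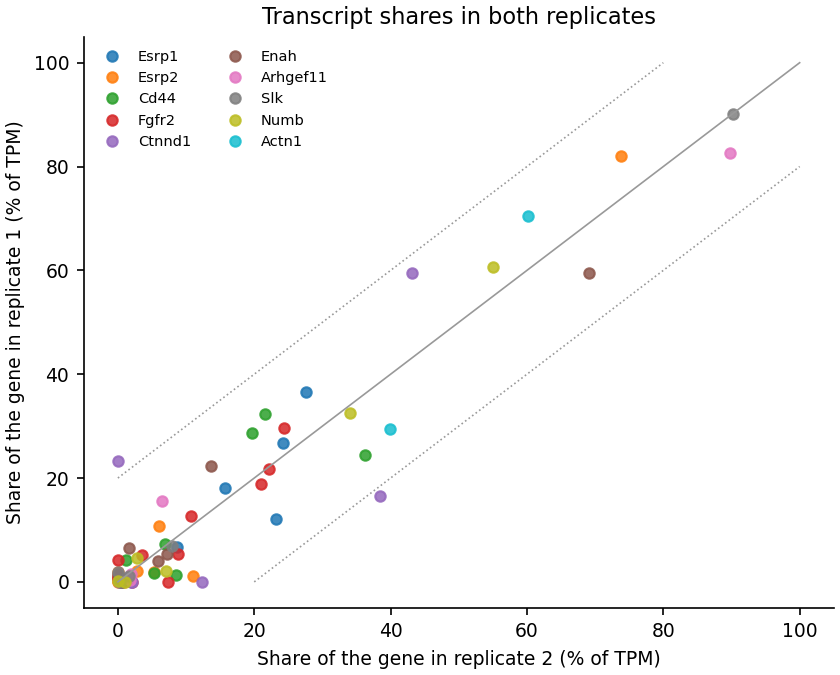
Share of each transcript in the TPM of its gene, replicate 1 on the vertical axis and replicate 2 on the horizontal axis, for the 71 transcripts above 0. The solid line marks equal shares and the dotted lines a difference of 20 percentage points, which Ctnnd1-204 (23.3% in replicate 1, listed at 0 in replicate 2) and Ctnnd1-208 (16.6% in replicate 1, 38.4% in replicate 2) pass.

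For Enah the transcripts and the junctions parted. Exon 11a, of 63 bases, is included in epithelial cells and absent from the mesenchymal forms of Mena. Its transcript Enah-202 had 2.49 and 1.45 TPM against a sum of 1.26 and 1.47 TPM for transcripts that skip the exon, a share of 66.4% and 49.7% (mean 58.0% ± 11.8). Only 2 reads led into exon 11a and 1 led out, against 16 that skip it, a share of 8.57% (0.624 to 31.9). All 3 came from the R2 count, so R1 alone gave 0%. The skipping transcripts Enah-212 (0.61 and 0.77 TPM) and Enah-211 (0.46 and 0.63 TPM) were each lower than Enah-202 in both libraries. Most Enah TPM lay in Enah-209, a transcript model of 687 bases outside this comparison, with 6.66 and 7.36 TPM, 59.6% and 69.0% of the gene. Of 386 reads from the shared donor 5 (1.30%) joined the exon of 303 bases that Enah-209 holds, and 338 (87.6%) joined the exon of 111 bases. As a share of expected counts Enah-209 held 18.4% of the gene. The acceptor that makes a large exon of 843 bases was used by 39 reads against 338 at the exon of 111 bases, 10.3% (7.46 to 13.9), and transcripts gave 20.9% and 26.6%. By expected counts not divided by length the share of the large exon was 14.5%.

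Between the Slk forms with and without exon 13, whose skipping is the epithelial pattern, nearly all TPM was assigned to the form without it. Slk-201, which lacks the exon of 93 bases, had 2.36 and 3.77 TPM. Slk-202, which has it, was listed at 0 in replicate 1 and had 0.01 TPM in replicate 2, so skipping held 100% and 99.7% of these forms. Of the whole gene Slk-201 held 90.1% and 90.2%, and retained intron transcripts held 9.92% and 9.57%. The junction table had 57 reads over the whole gene, of which 1 led into exon 13, 1 led out of it and 0 skipped it. With 2 reads at the exon no junction share is given. Enah, with 1125 and 1238 expected read pairs against 973 and 1848 for Slk, had 1200 junction reads, and the cause of the low junction count of Slk was not tested.

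For the proline-rich region of Numb the shares of both readouts lay within 1 percentage point. The exon of 147 bases (PRR) was included in 62.9% and 62.8% by transcripts, a mean of 62.8% ± 0.0504, and in 62.0% (56.3 to 67.4) by junctions, from 248 reads in, 137 out and 118 past it. R1 reads gave 53.1% and R2 reads 68.4%. The exon of 33 bases in the phosphotyrosine-binding domain (PTB) was included in 32.6% and 34.0% by transcripts (mean 33.3% ± 0.978), and no junction read matched either of its forms. Numb-210, with the PRR exon and without the PTB exon, had 18.4 and 15.9 TPM. Numb-201, with the PTB exon and without the PRR exon, had 9.85 and 9.84 TPM. The transcripts Numb-203 (0.61 and 2.06 TPM) and Numb-204 (1.41 and 0.82 TPM), which both lack the PTB exon, were minor.

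Actn1 used both of its exclusive exons. Only 2 transcripts are annotated, Actn1-201 with the exon of 81 bases and Actn1-202 with the exon of 66 bases. Actn1-201 had 23.5 and 17.5 TPM, and Actn1-202 had 9.83 and 11.6 TPM. The longer, non-muscle exon held 70.5% and 60.1% by transcripts (mean 65.3% ± 7.38). By junctions it held 39.6% (35.3 to 44.0), from 216 reads in and 185 out against 290 in and 322 out of the smooth muscle exon. The order of the exons was thus opposite in the 2 readouts. The transcript models also differ in length, 3739 against 2664 bases, and the part of this in the shares was not tested. The share of the smooth muscle exon by transcripts was 29.5% in replicate 1 and 39.9% in replicate 2. Of the 7 smooth muscle markers 5 were higher in replicate 1 and 2, Myh11 and Smtn, were lower, and their part in this was not tested.

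Arhgef11 showed the widest gap between transcripts and junctions. Arhgef11-205, which lacks the exon of 127 bases and is annotated as a target of nonsense-mediated decay, had 7.99 and 11.2 TPM. Arhgef11-201, a coding form with that exon, had 1.5 and 0.80 TPM, and Arhgef11-202 had 0.14 and 0.24 TPM. Skipping of the exon held 83.0% and 91.5% by transcripts (mean 87.2% ± 6.04). By junctions it held 4.60% (0.562 to 15.6), from 2 reads that skip the exon against 18 into it and 65 out of it. Within coding transcripts alone the skipped share was 0%.

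The remaining Arhgef11 exons also differed by readout. An exon of 30 bases next to it was included in 1.45% and 1.96% by transcripts and 78.4% (53.4 to 93.8) by junctions, from 13 reads in, 16 out and 4 past it. An early exon of 120 bases was skipped in 1.45% and 1.92% by transcripts and 70.0% (45.7 to 88.1) by junctions, from 14 reads past it, 8 in and 4 out. Within coding transcripts alone the share was 15.8% for each of these exons, and junctions that pass the reproducibility value gave 100% for the exon of 30 bases. For these 3 exons 1 transcript model, Arhgef11-205, fixes most of the transcript share, since it held 82.6% and 89.8% of the gene. A late exon of 129 bases was skipped by 11 reads against 17 in and 36 out, 29.3% (15.6 to 46.4), and no annotated transcript counted here skips it. Of the 11 reads, 8 joined the exons on either side of it. An unannotated donor gave 5 of the 17 reads in, all counted as R1, and 1 of the 11 that skip. R1 reads gave 53.3% and R2 reads 13.3%, and with junctions that pass the reproducibility value it was 0%. Which of these exons is the one that ESRP proteins regulate was not assigned here.

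**Figure D5:**
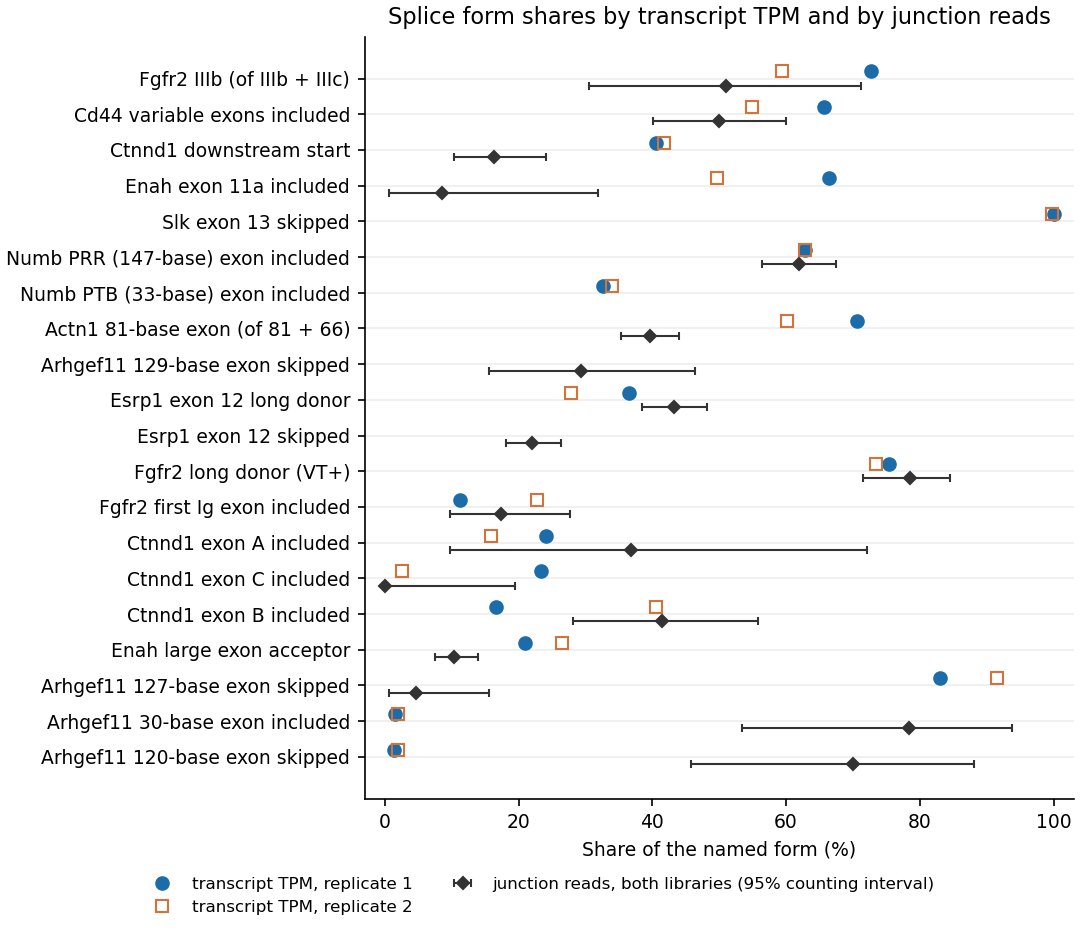
Share of the named form for each splice choice, with transcript TPM of replicates 1 and 2 as points and junction reads of both libraries as diamonds with a 95% counting interval. Numb PRR and both Fgfr2 donor and Ig choices coincide in the 2 readouts, whereas Actn1, Enah and Arhgef11 lie apart, as in 87.2% by transcripts against 4.60% by junctions for the Arhgef11 exon of 127 bases; Slk junctions are left out because 2 reads cover the exon.

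Over the 16 choices with both readouts, Slk left out, the mean transcript share lay inside the junction interval in 7 and outside it in 9. In 6 of the 9 the transcripts gave the higher share, for Cd44, the Ctnnd1 start, Enah exon 11a, the large Enah exon, Actn1 and the Arhgef11 exon of 127 bases. For Cd44 the mean of 60.3% was only just above the upper limit of 59.97%, and replicate 2 alone (54.9%) lay inside. In 3 of the 9 the transcripts gave the lower share, for the Esrp1 donor and the other 2 Arhgef11 exons. For the epithelial forms with values in both readouts, IIIb of Fgfr2, variable Cd44, the downstream Ctnnd1 start and Enah exon 11a, the mean share by transcripts ran from 41.2% to 66.1%. By junctions the same 4 ran from 8.57% to 51.0%. In the main setting neither readout put any of the 4 wholly in the epithelial or the mesenchymal form. For Enah exon 11a the junction share rests on 2 reads in and 1 out. It was 0% with R1 alone or with junctions that pass the reproducibility value.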

How the data were processed

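The series holds 2 stomach libraries in 1 group. Expected counts per gene and transcript were deposited by the authors as 1 table per library, on mm10 with GENCODE M4 models, per the file headers and README. TPM values were deposited in the same tables and are relative to all transcripts, spike-ins included, as were posterior mean TPM and the percent of each transcript in its gene (deposited isoform percent). The deposited columns are those that RSEM writes. The aligner and all versions: not given in the sources used here. A deposited mm9 junction table gives counts of reads per junction, each the sum of an R1 and an R2 number, neither of which the sources tie to a library, and a score taken as a reproducibility value, for which they give no definition.

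Symbols, exon structures, positions and sequences were taken from a later GENCODE release, M21 on mm10, through unversioned IDs. Of the members' 120 transcripts 118 had the same length there (Fgfr2-211 and Actn1-201 did not). Ratios are log2 of scaled counts (CPM), prior count 2, with TMM scaling in edgeR 4.0.16 and R 4.3.3, on expected counts rounded to whole numbers, with exact conditional binomial intervals at 95%. No molecular identifiers were used, so reads are not independent molecules and these intervals describe only counting error. DESeq2 1.42.0 size factors, library size alone, a prior count of 0.5 and TPM with a pseudocount of 1 were alternatives. Junctions were tied to a member where intron lengths and spacing matched its M21 introns on the same chromosome and strand, with no coordinates converted; 9 to 44 introns matched per gene at the best offset and 1 at the next best. A shift of 1 base was allowed. The ratio procedure was tested on simulated data. Figures and shares were computed with Python 3.11.15.

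The members and lists were chosen with earlier results of these data known. All 10 members are named, with the 3 transcripts of highest mean TPM in each where the results turn on them, and any transcript of a compared form with at least 0.1 TPM could be named. Of 20 splice choices, 9 were planned and 11 (the Esrp1 choices, the Fgfr2 donor and first domain, Ctnnd1 exons A, B and C, the large Enah exon and 3 Arhgef11 exons) were added after the annotation and data were seen. Of the other regulators, the 6 highest and a few with a known role in this switch are named. Sequences of some of the compared exons are not reported here.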

Additional observations from a re-analysis of the deposited data

How the results depend on the processing

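No member passed 2-fold between the replicates under any scaling, prior count or TPM-based ratio tried. The number of genes past 2-fold in either direction was 998 at a mean of at least 1 TPM and 4470 with no filter, against 533. Lower in replicate 1 were 308 and 2528 genes, against 71, and higher were 1942 with no filter, against 462. DESeq2 scaling gave 552 in either direction and library size alone 499. When the total excluded spike-ins, phiX174, Clps and Pgc, each member's TPM was 1.60 to 1.66 times as high.

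By expected counts not divided by length, shares became 69.9% for variable Cd44, 44.1% for the Ctnnd1 start, 43.9% for Enah exon 11a, 63.5% for Numb PRR, 29.7% for Numb PTB and 72.9% for the longer Actn1 exon. Posterior mean TPM gave 99.5% for Slk skipping, 62.9% for Numb PRR and 36.3% for Numb PTB, and coding transcripts alone gave 61.0% and 34.9% for PRR and PTB. By junctions that pass the reproducibility value, variable Cd44 was 37.3%, and Enah exon 11a and the late Arhgef11 skip were 0%. R1 alone gave 5.97% for the Ctnnd1 start, 0% for Enah exon 11a, 53.1% for Numb PRR and 53.3% for the late Arhgef11 skip. R2 alone gave 68.4% for Numb PRR and 13.3% for the late Arhgef11 skip. The upstream junction alone gave 32.3% for the Ctnnd1 start and 67.8% for Numb PRR, and the downstream one 53.7% for Numb PRR. The cause was not tested in any of these. Leaving out either replicate moved no share or level by more than 1 SD, which with 2 replicates it cannot do.

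No paired analysis was possible because the design has 1 group. Junction reads at the compared exons were few for Fgfr2 IIIb and IIIc, Enah exon 11a, Slk and the Ctnnd1 cassette exons, so their intervals are wide or, for Slk, no share is given, and the SD of 2 libraries is itself poorly known.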
